A study of Mus musculus with 282 samples.

Results

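The hypothalamus of DBA/2J mice was compared with that of C57BL/6J mice, the strain pair that founded the BXD recombinant inbred panel. The members were the 6 mice labelled with either strain, 3 of DBA/2J and 3 of C57BL/6J, out of 282 mice in the series, of which 281 mice from 99 strains carried consistent strain labels and entered the fit. All 6 mice were male and ate a high fat diet, so neither sex nor diet differed between the groups, and no age was given in the sample labels. Each library was made from the RNA of 1 hypothalamus and measured as FPKM, fragment counts scaled to transcript length and to the library's mapped fragments, over 14079 gene loci and 51024 transcripts of an assembly merged across the panel. Within each strain the 3 mice are separate animals, numbered 1 to 3 here in the order of their deposit.

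DBA/2J and C57BL/6J are fully inbred, so every mouse of a strain carries the same genome, and a difference shared by all mice of a strain can follow the sequence near the gene, sequence elsewhere in the genome or the environment. BXD strains carry random homozygous mixtures of both genomes. At a gene controlled by 1 locus, close to it or elsewhere, a BXD strain is therefore like one parent or the other. A trait set by many loci or by the environment instead spreads between and around the parents. The hypothalamus sets hunger, thirst, body temperature and reproduction through small groups of peptide neurons, which sit among glia, vessels and, at its surface, the leptomeninges.

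Reads were aligned by the authors to mm10, which is the genome of C57BL/6J itself. How well DBA/2J reads that differ from it were placed was not tested. A locus that has a near-identical copy elsewhere can receive reads from either. The largest differences between these strains include several such pairs, and 3 are shown first. For each, the coding sequence of the parent gene was aligned to its copy, and the 120-base stretch with the most differences is printed 5′ to 3′ from the GENCODE M21 transcripts (mm10), with the differing bases in capitals. Both members of a pair are the C57BL/6J reference, and no DBA/2J sequence was read. Rpsa, a ribosomal protein of the small subunit on chromosome 9, and Rpsa-ps10, a single-exon processed pseudogene on chromosome 3, differed at 6 of 885 coding bases. The stretch covers coding bases 100 to 219, at chr9:120128589-120129243 (plus strand, introns included) in Rpsa and chr3:150073324-150073443 (minus strand) in the pseudogene.
Rpsa: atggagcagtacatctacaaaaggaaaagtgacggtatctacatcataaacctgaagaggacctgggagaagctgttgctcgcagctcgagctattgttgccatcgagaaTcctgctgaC
Rpsa-ps10: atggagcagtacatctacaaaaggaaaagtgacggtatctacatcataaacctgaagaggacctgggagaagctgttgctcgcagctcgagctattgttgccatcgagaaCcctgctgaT
Rplp0, the stalk protein of the large ribosomal subunit on chromosome 5, and the processed pseudogene Gm8730 differed at 12 of 951 coding bases. The stretch lies at chr5:115561165-115561371 (plus strand, introns included) and chr8:102865295-102865414 (minus strand).
Rplp0: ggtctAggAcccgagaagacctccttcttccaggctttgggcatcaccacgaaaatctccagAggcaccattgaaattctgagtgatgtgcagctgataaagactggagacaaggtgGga
Gm8730: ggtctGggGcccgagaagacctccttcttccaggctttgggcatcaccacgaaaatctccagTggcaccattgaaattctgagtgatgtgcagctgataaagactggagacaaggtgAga
Rps18, another protein of the small subunit on chromosome 17, and the single-exon gene Gm10260 differed at 4 of 456 coding bases. The stretch lies at chr17:33952070-33952291 (minus strand, introns included) and chr13:97760157-97760276 (minus strand).
Rps18: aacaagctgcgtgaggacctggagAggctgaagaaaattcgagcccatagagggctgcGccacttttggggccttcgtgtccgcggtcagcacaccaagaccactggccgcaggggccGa
Gm10260: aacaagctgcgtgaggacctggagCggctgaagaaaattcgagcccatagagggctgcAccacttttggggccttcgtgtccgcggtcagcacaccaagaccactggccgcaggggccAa

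Across the 14079 loci, 965 differed between the strains at an adjusted p under 0.05 (6.85% of loci tested), of which 462 were higher (3.28%) and 503 lower (3.57%) in DBA/2J. The test was limma on log2(FPKM + 1) with all 99 strains in 1 fit and Benjamini-Hochberg adjustment over all loci, and every difference below is DBA/2J minus C57BL/6J on that scale, which understates the change of low genes. A difference of at least 1 on that scale was reached by 262 loci (1.86%), 176 of them higher (1.25%) and 86 lower (0.611%) in DBA/2J. The median difference over all loci was -0.006, and the 6 libraries had similar summed FPKM, from 326963 to 349867. Pairs of mice of one strain correlated at 0.9801 to 0.9852 over the log2 values and pairs of different strains at 0.9598 to 0.9675. Read depth is not part of the FPKM values and was not used here, so no counting error is given. An unadjusted p under 0.05 was reached by 2518 loci (17.9%), the share to set beside the counts of that kind below.

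Loci without a gene name supplied 117 of the 176 loci higher in DBA/2J by at least 1. Of the 1943 unnamed loci 257 were called (13.2%), and 72% of those calls were higher in DBA/2J. Of the 11497 loci with 1 gene name 670 were called (5.83%), and 38.2% of those were higher in DBA/2J. Of the 639 loci with 2 or more names 38 were called (5.95%), 55.3% of them higher. A difference of at least 1 was called at 7.05% of unnamed loci (85.4% of them higher), 1.06% of loci with 1 name (46.7% higher) and 0.469% of loci with several names (66.7% higher, 2 of 3). The largest difference in the table was in an unnamed locus at chr4:69925205-69934039, XLOC_024435, which was chosen after its values were seen. It measured 373, 373 and 407 FPKM in the DBA/2J mice and was listed at 0 in all C57BL/6J mice, and 22 of 43 BXD strains lay nearer DBA/2J.

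**Figure D1:**
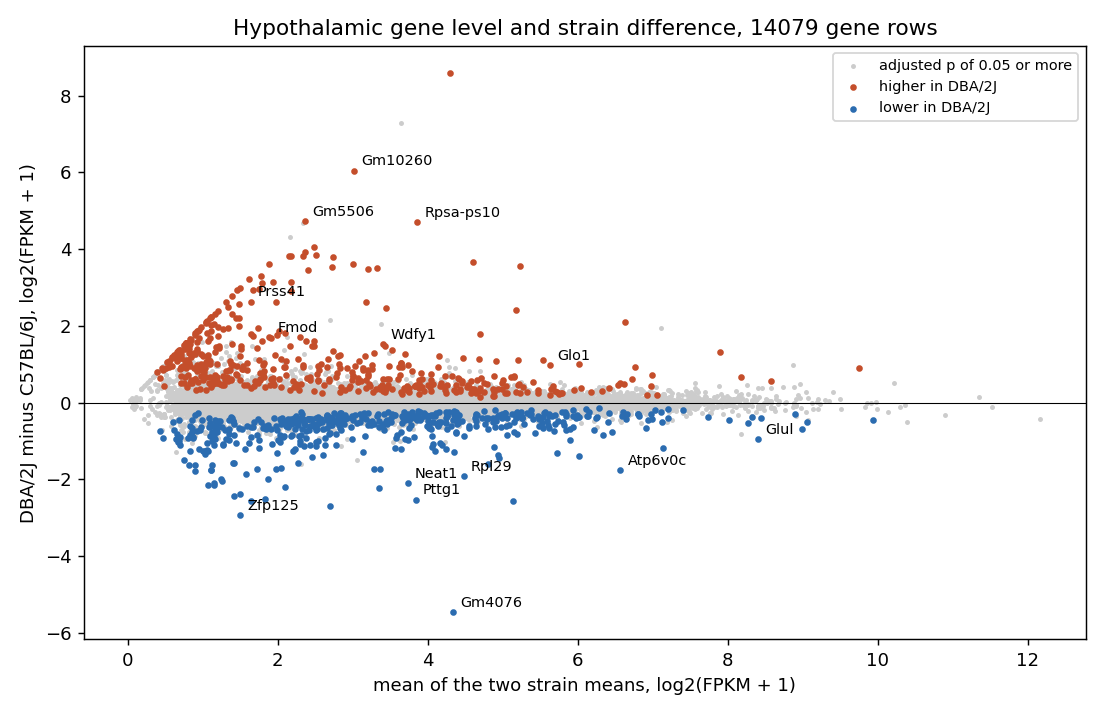
Each point is 1 of the 14079 loci, with the mean of both strain means on the x axis and the difference DBA/2J minus C57BL/6J on the y axis, both on the log2(FPKM + 1) scale. Red and blue points are the 462 loci called higher and the 503 called lower in DBA/2J, and the named points include Gm10260 at 6.04 and Gm4076 at -5.46.

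Of the established genes with the largest differences, those higher in DBA/2J were led by Rpsa-ps10. It measured 61, 78.9 and 81.6 FPKM in DBA/2J against 2.4, 1.02 and 2.38 FPKM in C57BL/6J, a difference of 4.70 ± 0.32 (SE; adjusted p = 1.4e-29). Prss41, a serine protease at chr17:23841108-23844172, measured 5.43, 6.2 and 9.04 FPKM against 0.176, 0.298 and 0.287 FPKM, a difference of 2.63 ± 0.23 (adjusted p = 1.5e-20). Both genes were near absent in C57BL/6J and present in every DBA/2J mouse. Tuba1c, an alpha-tubulin gene, measured 4.42, 6.12 and 6.32 FPKM against 0.564, 0.534 and 1.08 FPKM. Hddc3, which encodes an HD-domain phosphohydrolase, had 39.1, 52.6 and 50.6 FPKM against 15.8, 9.1 and 14.9 FPKM, a difference of 1.79 ± 0.20, so it was well expressed in both strains and about 3.57 times higher in DBA/2J. Also among the largest were Rps3a2, Rps3a3, Eif3j2, Hdhd3, and the trio Igfbp6, Islr and Fmod described below, with differences of 1.61 or more.

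On the lower side, Zfp125, a zinc finger gene on chromosome 12, was listed at 0, 0 and 0.0638 FPKM in DBA/2J against 6.13, 6.57 and 7.72 FPKM in C57BL/6J, a difference of -2.93 ± 0.18 (adjusted p = 4.4e-34). Pttg1, the securin that holds back the separation of sister chromatids, measured 5.26, 5.45 and 4.27 FPKM against 35.3, 30.1 and 35.1 FPKM, a difference of -2.53 ± 0.31. Neat1, the nuclear long non-coding RNA that scaffolds paraspeckles, measured 5.64, 4.2 and 6.73 FPKM against 22.6, 24.6 and 33.6 FPKM. The rule that named these genes required that the strains not overlap, as they did not at 25.9% of all loci. Atp6v0c, the proteolipid subunit of the vacuolar proton pump, was abundant in both strains, with 43, 53.7 and 55.9 FPKM against 182, 171 and 169 FPKM, a difference of -1.76 ± 0.16 (adjusted p = 8.6e-20). Rpl29, a protein of the large ribosomal subunit, measured 8.46, 10.5 and 12.9 FPKM against 49.1, 41 and 38.1 FPKM. Its near-identical partner Gm10709 was lower as well, at 0, 0 and 0.167 FPKM against 3.45, 5.06 and 2.8 FPKM.

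A striated muscle gene, Tnni1 (the slow skeletal troponin I), was also among these, at 0.0991, 0.242 and 0.537 FPKM against 6.42, 5.41 and 8.19 FPKM. The neighbouring Tnnt2, cardiac troponin T, chosen after its values were seen, was lower too, at 0.108, 0 and 0.0729 FPKM against 2.57, 1.77 and 2.61 FPKM. Both lie in the 5 Mb window that starts at position 135000001 of chromosome 1, where 6 of 26 loci were called. Erdr1, listed on the Y chromosome and repeated in the genome, measured 0.744, 1.86 and 2.35 FPKM against 18.9, 8.68 and 22.5 FPKM, and its reads cannot be placed with certainty. Fggy, a carbohydrate kinase, Myoc (myocilin), Apoa2, an apolipoprotein of high density lipoprotein, Hba-a2 (a haemoglobin alpha chain) and Fcrls (a microglial Fc receptor-like gene) complete the 12, with differences from -2.51 to -1.78. Apoa2 was listed at 0 in all 3 DBA/2J mice. Hba-a2 measured 0.249, 0.233 and 0 FPKM against 6.27, 4.94 and 4.53 FPKM, while its paralog Hba-a1 measured 15.9 to 24.3 FPKM against 14.6 to 20.1 FPKM, and how the reads were split between the paralogs is uncertain.

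**Figure D2:**
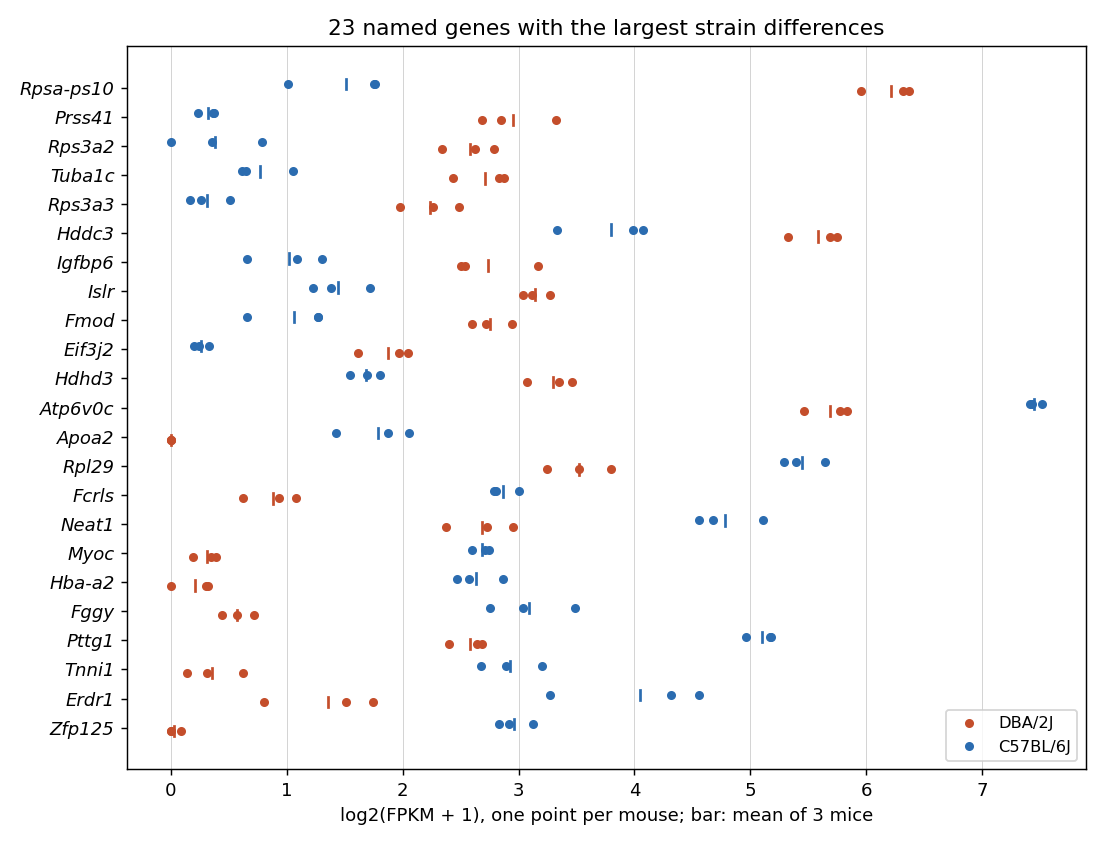
Each point is 1 mouse and each bar the mean of 3, on the log2(FPKM + 1) scale, for 23 established genes with the largest differences, 11 higher and 12 lower in DBA/2J. The strains do not overlap in any row because the rule that chose the genes required it, and Atp6v0c, at 43 to 55.9 FPKM against 169 to 182 FPKM, is the most abundant of the genes lower in DBA/2J.

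Among the predicted genes Gm10260 measured 52, 75.5 and 69.8 FPKM in DBA/2J and Gm5506, near-identical to the enolase gene Eno1, measured 20.1, 28 and 28.8 FPKM, and both were listed at 0 in every C57BL/6J mouse. Gm1840 measured 27, 25.2 and 29.1 FPKM against 0.966, 1.66 and 1.28 FPKM. Gm4076 moved the other way, at 141, 131 and 130 FPKM in C57BL/6J, but the DBA/2J mice were not alike. They measured 0.0083, 0.0239 and 26.6 FPKM, so mouse 3 stood apart, and the difference was -5.46 ± 1.3 (adjusted p = 0.0018).

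Aligning the annotated transcripts of 11449 loci to each other gave 97 pairs with at least 90% identity over at least 80% of the shorter transcript. Both members were called in 12 pairs, in opposite directions in 7 and in the same direction in 5. In 24 pairs 1 member was called and in 61 neither was. The 6.85% called overall is a share of single loci, not of pairs. Rps18, at 48.8, 63.4 and 66.1 FPKM in DBA/2J, was lower than the 109, 106 and 108 FPKM of C57BL/6J, by -0.86 ± 0.19, while Gm10260 was higher. Their sum was 125 ± 21.2 FPKM (SD, n = 3) in DBA/2J and 107 ± 1.64 FPKM in C57BL/6J. FPKM is divided by transcript length, so such sums are not sums of reads.

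The sums of other pairs differed between the strains by varying amounts. Rpsa and Rpsa-ps10 summed to 106 ± 16.3 FPKM against 84.5 ± 8.52 FPKM, with Rpsa alone at 26.8, 34.9 and 36.2 FPKM against 91.2, 75.7 and 80.9 FPKM. Rplp0 and Gm8730 summed to 47.9 ± 6.55 FPKM against 104 ± 14 FPKM, since Gm8730 reached only 7.68 to 9.13 FPKM in DBA/2J while Rplp0 was lower by -1.38 ± 0.17. The glycolytic enzyme gene Eno1 and Gm5506 summed to 119 ± 17.1 FPKM against 212 ± 4.27 FPKM. In the BXD strains both members of a pair mostly took the same parent's level even where they lie on different chromosomes. For Rps18 and Gm10260, on chromosomes 17 and 13, 42 of 43 strains were on the same parental side at both loci, as were 43 of 43 for Rplp0 and Gm8730 and for Rnps1 and Gm9825. Rpsa and Rpsa-ps10 were on the same side in 29 of 43. Whether reads moved between the members of a pair was not tested.

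**Figure D3:**
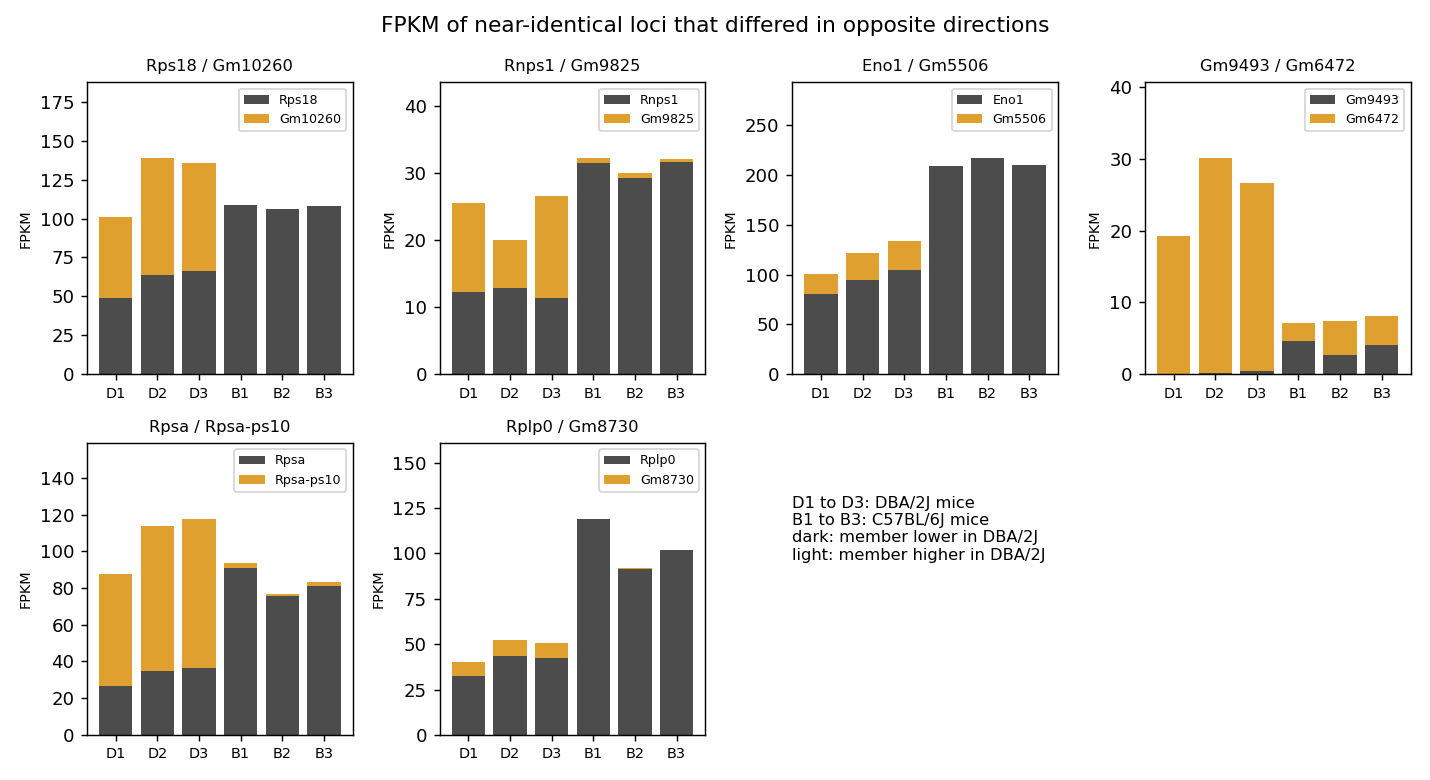
Stacked bars give the FPKM of both members of 6 pairs that differed in opposite directions, for DBA/2J mice D1 to D3 and C57BL/6J mice B1 to B3, with the member that was lower in DBA/2J in dark. The stacks of Rps18 and Gm10260 have means of 125 and 107 FPKM in DBA/2J and C57BL/6J, and those of Rplp0 and Gm8730 have means of 47.9 and 104 FPKM.

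The BXD mice form neither side of the comparison of the parents, but they helped to estimate the spread within strains in that fit. A locus of low spread is favoured in both tests, so the BXD counts below are not independent of the calls. In a separate limma fit of the 126 BXD mice alone, 5856 of 14079 loci differed among the 43 strains (41.6%). Of the 965 loci called between the parents 850 did so (88.1%), as did 249 of the 262 with a difference of at least 1 (95%) and 38.2% of the loci that were not called. Placing each BXD strain mean between the parental means, 91.9% of the 965 loci had between 10 and 33 strains nearer DBA/2J, with a median of 21. The span between the parental means was cut into 3 equal zones. The central zone held at most 4 BXD strains in 36.1% of the called loci and in 67.6% of those with a difference of at least 1. The shares by side and by zone are not given for loci that were not called, so they are a description of the called loci.

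Many of the largest genes fell into clean parental classes. At Prss41, 19 BXD strains lay nearer DBA/2J and 24 nearer C57BL/6J with none in the central zone. Pttg1, Neat1 and Atp6v0c each divided 20 to 23, again with the central zone empty, and Rpl29 divided 15 to 28. Wdfy1, which encodes a FYVE-domain protein of endosomes, divided 28 to 15. Scg5, the 7B2 chaperone of the prohormone convertase PC2, chosen after its values were seen, measured 357, 378 and 392 FPKM against 147, 151 and 154 FPKM, a difference of 1.31 ± 0.13, and divided 20 to 23 with an empty central zone. Islr, Fmod and Igfbp6 did not divide in this way. Each had between 19 and 22 strains in the central zone, and none of these 3 passed the test among BXD strains (adjusted p from 0.171 to 0.567), the exceptions among the 24 genes.

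At 11 of the 965 called loci nearly the whole BXD panel lay with one parent, which was seen only after the values were known. The same count over loci that were not called is not given, so the 11 are a description. At least 40 of 43 strains were nearer DBA/2J at 6 loci and nearer C57BL/6J at 5. Ndn, the imprinted gene of necdin that is expressed from the paternal allele, measured 365, 388 and 340 FPKM in DBA/2J and 278, 218 and 197 FPKM in C57BL/6J, a difference of 0.67 ± 0.13. C57BL/6J had the lowest mean of all 99 strains at Ndn, the other 97 strains all lay above it, at up to 546 FPKM, and 43 of 43 BXD strains were nearer DBA/2J. Zbed3, a zinc finger protein that binds axin, had its highest strain mean in C57BL/6J, with 15, 19.9 and 15.8 FPKM against 4.08, 4.3 and 4.73 FPKM in DBA/2J, and 42 of 43 BXD strains were nearer DBA/2J. Conversely, DBA/2J had the lowest mean of the 99 strains at Elavl2, a neuronal RNA-binding protein (38.2, 28.5 and 27.5 FPKM against 45.6, 47.5 and 45.6 FPKM), and the highest at the growth factor gene Bmp7 (5.21, 5.76 and 6.51 FPKM against 3.17, 2.6 and 4.3 FPKM). In the BXD panel 1 strain lay nearer DBA/2J at Elavl2 and 2 at Bmp7. Elavl2 and Zbed3 did not pass the test among BXD strains (adjusted p = 0.373 and 0.672). Elavl2 lost its call without single mice, with an adjusted p of 0.149 by limma without DBA/2J mouse 3, and Bmp7 had 0.07 without C57BL/6J mouse 2.

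**Figure D4:**
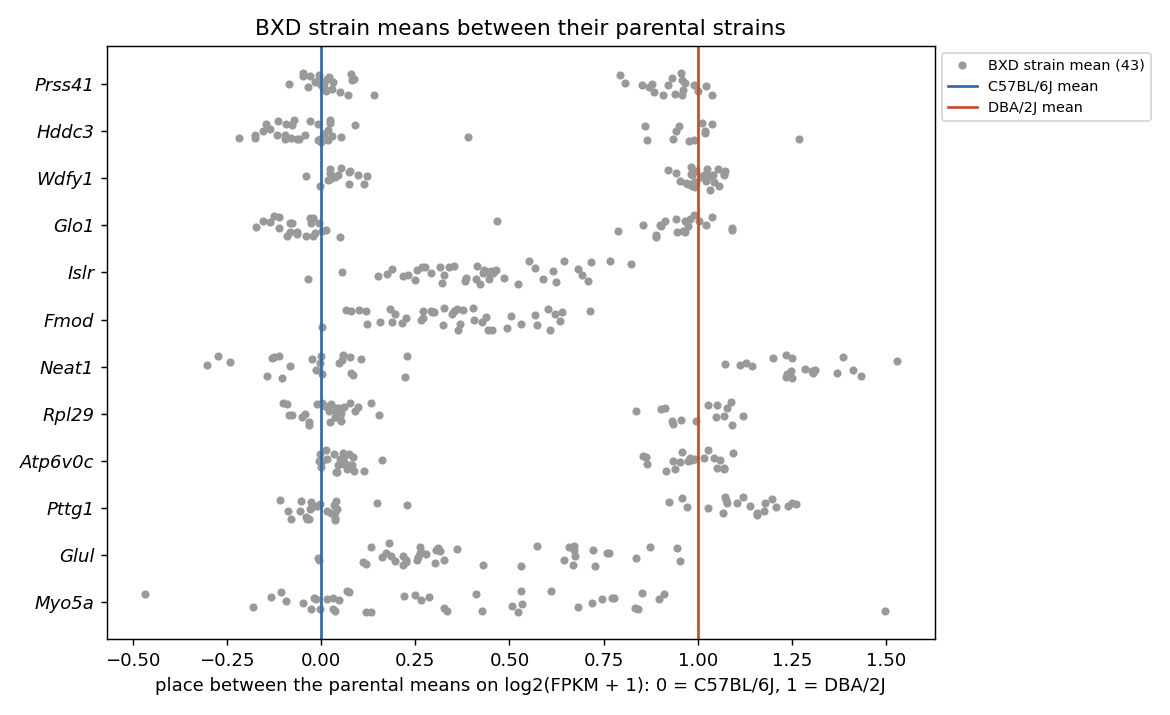
Each grey point is 1 of 43 BXD strain means of log2(FPKM + 1), placed on a scale where C57BL/6J is 0 and DBA/2J is 1, for 12 genes. Prss41, Wdfy1, Rpl29 and Atp6v0c fall into a group at each parent with an empty central zone, whereas Islr and Fmod each have 22 strains in the central zone.

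Of 25 genes listed as known to vary between these strains, 15 were measured and 9 differed, 6 higher and 3 lower in DBA/2J. The list holds genes already known for this, so its 60% against 6.85% of all loci is not independent evidence. Glo1, the glyoxalase that clears methylglyoxal, measured 62.9, 70.5 and 73.3 FPKM in DBA/2J and 31.8, 37.5 and 34.3 FPKM in C57BL/6J, which is 2 times the level of C57BL/6J (0.98 ± 0.13, adjusted p = 6.4e-10). Alad, an enzyme of haem synthesis, measured 33.8, 39 and 38.4 FPKM against 15.6, 17.9 and 15.5 FPKM, and the adjacent Hdhd3 7.43, 9.17 and 9.99 FPKM against 1.92, 2.5 and 2.24 FPKM. At Alad and at Hdhd3 22 of 43 BXD strains lay nearer DBA/2J and 1 in the central zone. Wdfy1 measured 17.8, 17.2 and 15.9 FPKM against 4.77, 5.43 and 5.53 FPKM, and C57BL/6J ranked 97 of 99 strains there. Nnt, the mitochondrial nicotinamide nucleotide transhydrogenase, of which C57BL/6J carries a partial deletion, measured 9.82, 9.33 and 8.35 FPKM against 6, 5.95 and 6.05 FPKM.

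Among the lower genes Cox7a2l, an assembly factor of respiratory supercomplexes, measured 36.5, 47.5 and 49.6 FPKM against 81.3, 68.6 and 68.2 FPKM. Myo5a, the myosin altered by the dilute coat colour allele of DBA/2J, measured 36.3, 30.9 and 28.1 FPKM against 52.5, 60.6 and 54.4 FPKM (-0.80 ± 0.25, adjusted p = 0.0243), and DBA/2J ranked 98 of 99 strains. The call of Myo5a was lost on leaving out any of 4 single mice, with an adjusted p of up to 0.13 without DBA/2J mouse 3. Gabra2, the alpha2 subunit of the GABA-A receptor, shares its locus with Gabrg1, and the locus was not called (0.33 ± 0.13, adjusted p = 0.122). A transcript of Gabra2 alone measured 16.4, 14.6 and 12.2 FPKM against 5.14, 6.8 and 6.3 FPKM and passed the test over transcripts (1.12 ± 0.14, adjusted p = 1.5e-10).

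Part of the interferon response list was higher in DBA/2J. Of the 21 measured genes of this list 5 were called, all higher in DBA/2J (23.8% against 6.85% of all loci), 18 of 21 differences were above 0, and the median was 0.39. Bst2, tetherin, which holds budding virus at the membrane, measured 7.46, 7.46 and 10.4 FPKM against 2.54, 2.92 and 1.8 FPKM, a difference of 1.46 ± 0.36 (adjusted p = 0.00223). Ifit3, which binds viral RNA within a complex of its family, measured 7.16, 11.3 and 5.63 FPKM against 3.3, 2.83 and 4.93 FPKM. The guanylate-binding protein Gbp2 measured 3.33, 3.87 and 5.11 FPKM against 1.41, 1.37 and 1.64 FPKM, and Oasl2 and Ifitm3 were higher by 1.14 and 0.92. The summed level of the 21 genes was 173 to 197 FPKM in the DBA/2J mice and 115 to 123 FPKM in the C57BL/6J mice, the 6th highest and 57th of the 99 strains. None of the 5 calls held under every alternative. Bst2 kept its call on leaving out each mouse in turn but had an adjusted p of 0.132 without both mice of high Ttr, which are described below. Ifitm3 had an adjusted p of 0.207, Ifit3 of 0.181 and Oasl2 of 0.179 without DBA/2J mouse 2, and Gbp2 of 0.168 without DBA/2J mouse 3.

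The promoters of these genes were searched for GAAANNGAAA on both strands, the core of the element bound by interferon-activated factors. RefSeq promoters (GRCm38.p6) of 250 bases before to 50 bases after the gene start were found for 18 of the 21 genes. The motif was present in 9 of the 18 and in 4 of the 5 called genes, against 3.49% of 27025 promoters. The list was chosen for response to interferon, so these shares do not bear on the strain difference. Among its uncalled genes Isg15, Stat2 and Ddx58 carried the motif, and Irf1, Irf9 and Xaf1 did not. All promoters are the reference sequence, and no DBA/2J promoter was read. It is shown in capitals in 100-base stretches of the promoters of Ifit3 (chr19:34583337-34583436, plus strand), Bst2 (chr8:71537567-71537666, minus strand, where 2 matches overlap) and Gbp2 (chr3:142620534-142620633, plus strand), in which TTTC marks the motif read from the other strand.
Ifit3: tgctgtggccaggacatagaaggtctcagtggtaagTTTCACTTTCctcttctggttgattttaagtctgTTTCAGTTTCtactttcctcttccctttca
Bst2: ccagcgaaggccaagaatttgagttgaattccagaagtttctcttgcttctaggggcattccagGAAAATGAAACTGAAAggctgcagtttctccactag
Gbp2: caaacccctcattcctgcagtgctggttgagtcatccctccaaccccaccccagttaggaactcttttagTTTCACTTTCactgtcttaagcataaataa

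Class I genes of the major histocompatibility complex, which present peptides to T cells, differed in both directions. H2-Q4 measured 6.71, 8.9 and 8.82 FPKM against 2.88, 1.65 and 1.61 FPKM and H2-Q6 was higher by 1.14, while H2-Q2 measured 1.84, 2.39 and 1.74 FPKM against 7.93, 5.57 and 5.15 FPKM and H2-T22 3.7, 4.68 and 4.21 FPKM against 8.31, 8.38 and 7.77 FPKM. These genes are near-identical in part and differ between haplotypes, so their single values are uncertain. The remaining 15 of the 19 measured genes were not called, including B2m, their shared light chain, at 72.2 to 86.9 FPKM against 66.5 to 68.1 FPKM. Among 15 complement and acute phase genes 4 were higher and 2 lower (40%, against 6.85% of all loci). Cd59a, which blocks the membrane attack complex, measured 11.6, 10.9 and 11.5 FPKM against 5.77, 5.58 and 6.17 FPKM, whereas the calls of Serping1, C4a, Serpina3n and C1qc were lost without single mice, with adjusted p of up to 0.107, 0.122, 0.24 and 0.191. C1qb, a chain of the initiating complex C1q, measured 9.57, 12.8 and 12.1 FPKM against 21.6, 19.8 and 23.4 FPKM. C1qa, another chain of that complex, was not called by limma (-0.06, adjusted p = 0.922).

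Several genes typical of the leptomeninges, the fibroblast sheet on the brain surface, were higher in DBA/2J. This list was drawn up after Fmod, Islr and Igfbp6 had been seen among the largest genes, so its counts are a description. Of its 14 measured genes 9 were called, all higher in DBA/2J, the median difference was 1.13, and the summed level was 754 to 974 FPKM in DBA/2J against 419 to 523 FPKM in C57BL/6J. Most of that sum was Ptgds, which was not called. Without it the sums were 143 to 218 FPKM against 104 to 144 FPKM and overlapped narrowly, and DBA/2J ranked 1 and C57BL/6J 49 of 99 strains. The highest of these sums in each strain, 218 and 144 FPKM, was in mouse 3, the mouse of high Ttr. DBA/2J ranked 5 of 99 strains for the whole list. Islr, a secreted leucine-rich repeat protein, measured 7.22, 7.69 and 8.68 FPKM against 1.61, 1.34 and 2.29 FPKM, and Fmod, the collagen-binding fibromodulin, 5.6, 5.04 and 6.68 FPKM against 1.41, 0.573 and 1.41 FPKM. Of the 9 called genes 2, Slc13a4 and Dcn, passed the test among BXD strains. DBA/2J had the highest mean of the 99 strains at Islr, Fmod, Igfbp6, Slc13a4, Slc6a13, Crabp2, Nov and Dcn. Ptgds, the prostaglandin D synthase that is abundant in these cells, measured 646, 582 and 755 FPKM against 305, 318 and 379 FPKM without passing the test (adjusted p = 0.286). More cells of a type and more RNA per cell cannot be told apart in whole tissue, and a share of meninges that differed with dissection was not tested. Without DBA/2J mouse 3 the adjusted p was 0.0715 for Crabp2, 0.0549 for Itih2 and 0.137 for Slc6a13, and Slc13a4 had 0.166 without C57BL/6J mouse 2, while Nov and Dcn lost their calls for 6 and 5 of the single mice. Without both mice of high Ttr, Crabp2, Itih2, Slc6a13, Nov and Dcn lost their calls, with adjusted p by limma from 0.0937 to 0.381.

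Of 13 astrocyte genes 3 were called, all lower in DBA/2J (23.1%, against 6.85% of all loci). Glul, glutamine synthetase, which makes glutamine from the glutamate cleared by astrocytes, measured 241, 227 and 262 FPKM against 494, 459 and 464 FPKM (-0.95 ± 0.09, adjusted p = 2e-18), and DBA/2J had the lowest mean of all 99 strains. Fgfr3 and Acsbg1 were lower by -0.39 and -0.30, and Fgfr3 had an adjusted p of 0.0969 without C57BL/6J mouse 1, whereas the glutamate transporter Slc1a2 measured 184, 155 and 158 FPKM against 149, 166 and 163 FPKM. Fcrls was the only called gene of 14 microglia genes (7.14%, near the share of all loci), at 0.915, 0.537 and 1.12 FPKM against 5.92, 7.03 and 5.99 FPKM. None of 14 oligodendrocyte genes was called by limma, against 6.85% of all loci, and 1 had an unadjusted p under 0.05. Mbp, myelin basic protein, measured 1050 to 1331 FPKM against 1247 to 1344 FPKM. Flt1, the vascular endothelial growth factor receptor 1, and Slc2a1, the glucose transporter of the blood-brain barrier, were lower among 10 endothelial genes. These 2 calls were 20% of the list, against 6.85% of all loci, and neither gene passed the test among BXD strains. Slc2a1 lost its call on leaving out any single mouse, with an adjusted p of up to 0.129 without DBA/2J mouse 3. Flt1 had an adjusted p of 0.227 without DBA/2J mouse 3.

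**Figure D5:**
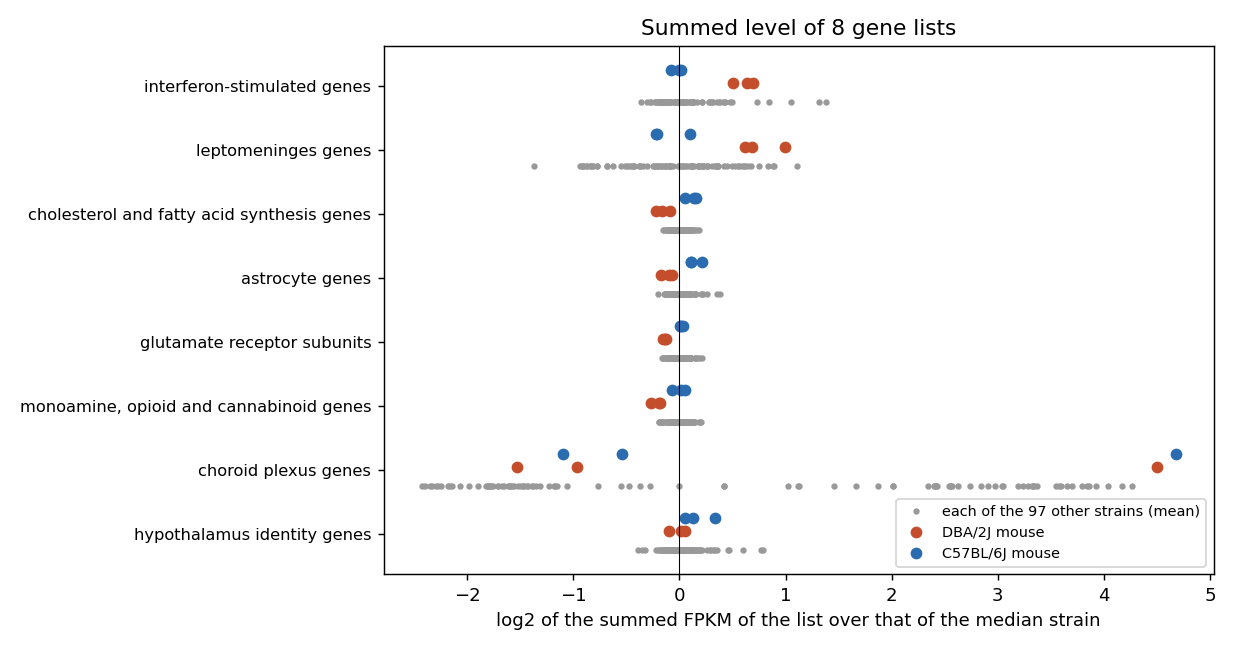
For each of 8 gene lists the summed FPKM of each DBA/2J mouse (red), each C57BL/6J mouse (blue) and the mean of each of the 97 other strains (grey) is drawn as log2 of its ratio to the median strain. The DBA/2J mice lie above all C57BL/6J mice for the interferon-stimulated and leptomeninges lists and below them for the cholesterol and fatty acid list. Without Ptgds the leptomeninges sums overlapped narrowly, at 143 to 218 FPKM against 104 to 144 FPKM. Without the locus of Scd2 and Scd3 the cholesterol and fatty acid sums overlapped as well. For choroid plexus genes 1 mouse of each strain stands far apart.

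Of 30 genes of cholesterol and fatty acid synthesis 4 were called, all lower in DBA/2J (13.3%, against 6.85% of all loci called and 3.57% lower). The median difference was -0.07, and 11 of 30 differences were above 0. The summed level was 1062 to 1157 FPKM against 1283 to 1373 FPKM, the lowest of all 99 strains, but without the locus of Scd2 and Scd3, which was not called, it was 870 to 927 FPKM against 918 to 983 FPKM and DBA/2J ranked 77. Sc5d, an enzyme late in cholesterol synthesis, measured 19.1, 14.5 and 15.4 FPKM against 22.8, 26.7 and 24 FPKM. Fads2, the delta-6 fatty acid desaturase, measured 64.7, 74.3 and 71.9 FPKM against 104, 95.4 and 99 FPKM, and Scd1 and Cyp51 were lower by -0.35 and -0.34. Scd1 had an adjusted p of 0.0525 and Cyp51 of 0.197 without DBA/2J mouse 3. The locus shared by Scd2 and Scd3, stearoyl-CoA desaturases, measured 228, 230 and 192 FPKM against 390, 365 and 395 FPKM with an adjusted p of 0.0529. Fabp5, a carrier of fatty acids, chosen after its values were seen, measured 23.8, 29.5 and 26.3 FPKM against 48.1, 48.7 and 46 FPKM.

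Neuropeptides mostly did not pass the test. None of 14 peptides of feeding and energy balance was called by limma, where 6.85% of all loci were. At that share lists of this size would hold few calls. An unadjusted p under 0.05 was reached by 1 of the 14, and by 17.9% of all loci. Pmch, melanin-concentrating hormone, measured 533, 588 and 514 FPKM against 430, 404 and 397 FPKM (0.41 ± 0.23, adjusted p = 0.353), and Hcrt, the orexin precursor, 88.3, 149 and 136 FPKM against 217, 155 and 155 FPKM. The 28 receptors and signalling genes of leptin, insulin and feeding likewise had no call and 4 at an unadjusted p under 0.05. Gnrh1, which drives the reproductive axis, was the only call among 23 other peptide genes (4.35%, against 6.85% of all loci). It measured 6.19, 4.38 and 4.48 FPKM against 2.23, 0.723 and 1.94 FPKM (1.23 ± 0.35, adjusted p = 0.0123). Its call was lost without C57BL/6J mouse 2 (adjusted p = 0.174) and without DBA/2J mouse 1. Oxt shares a locus with Mrps26 and Ptpra and Agrp with Atp6v0d1, so neither could be read alone from the gene rows.

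Of receptors, Gabrg3 was the only 1 of 13 GABA-A loci called (7.69%, near the 6.85% of all loci), at 6.05, 5.45 and 4.88 FPKM against 7.72, 7.87 and 7.28 FPKM. Its adjusted p was 0.0558 with only the 6 mice in the fit and 0.0579 without both mice of high Ttr. Gria1, a subunit of AMPA receptors, measured 64.6, 61.6 and 69.6 FPKM against 86.6, 85.3 and 86.7 FPKM, and with the kainate receptor subunit Grik4 it made 2 lower calls of 22 glutamate receptor genes (9.09%). Gria1 had an adjusted p of 0.0621 without DBA/2J mouse 2 and Grik4 of 0.157 without C57BL/6J mouse 3. Of 26 monoamine, opioid and cannabinoid genes 4 were called (15.4%). Among them Faah and Mgll, which degrade endocannabinoids, were higher by 0.50 and 0.41 and the cannabinoid receptor Cnr1 lower by -0.69, while Dagla, Daglb and Napepld, which make endocannabinoids, had differences of 0.01, 0.07 and -0.18 and were not called. The calls of Faah, Mgll and Cnr1 rested on single mice, with adjusted p of 0.234 for Faah and 0.193 for Mgll without DBA/2J mouse 3 and 0.289 for Cnr1 without DBA/2J mouse 2. Per2, a repressor of the circadian clock, was the only call of 19 clock genes (5.26%, near the share of all loci). It measured 4.26, 4.33 and 4.53 FPKM against 6.21, 6.77 and 6.29 FPKM. No call was made among 16 immediate early genes, 16 glucocorticoid-responsive genes or 27 chaperone and endoplasmic reticulum stress genes, where limma gave 1, 1 and 3 at an unadjusted p under 0.05. At the 6.85% of all loci called, lists of this size would hold few calls. Of 35 genes of glyoxalase, glutathione and haem enzymes 4 were higher (Alad, Glo1, Gsr and Nnt) and Gsto1 lower (14.3%, against 6.85% of all loci). Alad, Glo1 and Nnt are also on the list of genes known to vary between these strains, so this share is not independent evidence. Gsto1 had an adjusted p of 0.285 without DBA/2J mouse 3. Gsr, glutathione reductase, measured 21, 17.2 and 17.9 FPKM against 12.4, 10.3 and 9.19 FPKM.

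Markers of hypothalamus and of neighbouring tissue were read beside these values. None of 21 transcription factor genes that mark hypothalamic nuclei was called, with none at an unadjusted p under 0.05 by limma. Only 3 of the 21 differences were above 0, with a median of -0.1. Their summed level was 98.6 to 109 FPKM against 109 to 132 FPKM, which ranked DBA/2J 55 and C57BL/6J 16 of 99 strains. Hypothalamic tissue was thus present in all 6, and whether its share differed between the strains was not tested. Genes of choroid plexus separated the mice within strains. Ttr, the transthyretin secreted by that epithelium, measured 9.05, 19.4 and 1226 FPKM in DBA/2J and 29.6, 14.7 and 1376 FPKM in C57BL/6J, so mouse 3 of each strain stood apart. Without both of these mice 603 loci were called, against 965, and 251 against 262 with a difference of at least 1. Summed anterior pituitary genes were low in all 6, from 3.2 to 14.3 FPKM, beside up to 8041 FPKM in other strains.

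Calls were spread over the genome. Chromosome 17 had the highest share among autosomes, 61 of 566 loci (10.8%), and chromosome 10 the lowest, 21 of 615 (3.41%). Of 419 windows of 5 Mb with at least 10 loci, 112 had no call. The densest began at position 60000001 of chromosome 13, with 6 of 16 loci called, among them Fancc and Ctsl, followed by the window from 60000001 of chromosome 7 with 7 of 21, which holds Ndn. On chromosome 17 the window from 35000001 held 10 calls of 48 loci, including H2-Q2, H2-Q4, H2-Q6 and H2-T22. Of 13 genes listed from the distal chromosome 1 hotspot, 2 were called (15.4%, against 6.85% of all loci) and 10 had an unadjusted p under 0.05 (17.9% of all loci did). The lower call at Copa, a coat protein of vesicles between the Golgi and the endoplasmic reticulum, held under every alternative run, with 45.9, 43.2 and 45.6 FPKM against 68.7, 68 and 68.3 FPKM (-0.60 ± 0.06, adjusted p = 1e-16).

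At transcript level 995 of 51024 rows were called (1.95%), 508 higher (0.996%) and 487 lower (0.954%) in DBA/2J, in 801 loci. Of these loci 419 were not called as genes, and 69 had transcripts called in both directions. Tuba1a, the alpha-tubulin of developing neurons, was not called as a gene (adjusted p = 0.582), but a 610-base transcript measured 165, 131 and 128 FPKM in DBA/2J against 0.898 FPKM or less in C57BL/6J, and a 916-base transcript 72.2, 102 and 114 FPKM in C57BL/6J against 0.00059 FPKM or less in DBA/2J. Camk2n1, an inhibitor of calcium/calmodulin-dependent kinase II, shares a locus with Kif17 and Sh2d5 that was not called either. Its 4444-base transcript measured 27.1, 54.2 and 32.4 FPKM in C57BL/6J and at most 4.22e-05 FPKM in DBA/2J, while a 4336-base transcript measured 74.5, 64.3 and 69.1 FPKM in DBA/2J against 48.2, 35.6 and 39.2 FPKM. The chaperone gene Hspa8 and the glycolytic gene Gapdh each supplied 2 more of the 8 transcripts with the largest differences in loci that were not called. The Gapdh transcript of 1420 bases measured 267, 313 and 209 FPKM in C57BL/6J against 2.4, 4.01 and 0.796 FPKM in DBA/2J, and its adjusted p was 0.0781 with a pseudocount of 0.01. The 727-base transcript of Hspa8 had an adjusted p of 0.0891 with only the 6 mice in the fit. A Syt11 transcript completed the 8, and its call was lost without any single mouse. Transcripts of 1 locus share most of their sequence, so these values are estimates of how shared reads divide.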

How the data were processed

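RNA of whole hypothalamus was sequenced from unstranded TruSeq libraries, 1 per mouse. STAR 2.3.1 served the authors for alignment (mm10) and Cufflinks 2.2.0 for an assembly of each strain. The assemblies were merged with GENCODE annotation, and the authors deposited FPKM from Cuffnorm 2.2.1, keeping loci detected in enough mice. Depth is not carried by these values and was not used here. Loci take the names of their transcripts in the merged assembly, and 639 loci hold 2 or more genes. Differences were tested on log2(FPKM + 1) with limma 3.58.1 (R 4.3.3), a variance trend and 99 strain means. One mouse with conflicting strain labels was left out. On simulated data of 14079 genes, 94% of differences of size 1 and 47% of size 0.5 were recovered. Named genes were, per direction, the 12 established and 4 predicted genes with the largest called, non-overlapping difference, up to 6 called and 3 abundant uncalled members of each list, and 8 transcripts. The genes, lists and tests were chosen with earlier results of these data known. The test among BXD strains, the near-identical pairs, the leptomeninges list and the motif search were added after seeing the data. Pairs were aligned with minimap2 2.31. A few named genes are not reported here.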

Additional observations from a re-analysis of the deposited data

How the results depend on the processing

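The 965 called loci became 636 when only loci with 1 gene name were tested, which tests fewer loci and leaves 239 of them higher in DBA/2J, against 462 of 965. Among autosomal loci with a gene name 254 of 655 were higher. The count was 603 (316 higher) with both mice of high Ttr left out, an alternative chosen after seeing the data that leaves 2 mice a strain. On leaving out each of the 6 DBA/2J and C57BL/6J mice in turn the count ranged from 687 to 837 for all differences, from 243 to 270 for those of at least 1, and from 698 to 858 for transcripts. Leaving out 1 BXD mouse with a high FPKM sum gave 1215, 267 and 1186. The 262 loci with a difference of at least 1 became 398 with a pseudocount of 0.1, which shrinks low values less. The 995 called transcripts became 366 with only the 6 mice in the fit, which leaves fewer mice to estimate the spread, and 641 with both mice of high Ttr left out. The other counts stayed within 1.5 times. Of 114 named genes and transcripts past the threshold 73 passed it under every alternative run, and no called difference changed sign. No paired analysis was possible because the labels give no replicate numbers shared between the strains. Read depth was not used here, and 3 mice a strain limit small differences.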
